A study of Mus musculus with 6 samples.

Results

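The lysosomal hydrolases, lysosomal membrane proteins and transcription factors of the TFEB family were followed in MC3T3-E1, a cell line of pre-osteoblasts that was derived from mouse calvaria. The 53 genes were chosen by name. There were 36 enzymes and their activators, and 9 proteins of the lysosomal membrane and of cholesterol transport, with progranulin (Grn) counted there. The others were 5 subunits of the proton pump and the 3 factors Tfeb, Tfe3 and Mitf. Of the 53 genes, 52 were found among the 26187 genes of the tables, and 48 had a mean of at least 0.5 FPKM (fragments scaled by transcript length and by the mapped fragments of the library) and were tested, among 12590 genes in all.

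The PAKG group had received PAKG–8diol–PEG(S) microparticles (MPs), a polymer of α-ketoglutarate with octanediol and polyethylene glycol in the small particle size, at 30 μg/mL for 2 days in osteoconductive (OC) medium. The OC group had the same medium for 2 days without MPs. Poly(A) RNA of 3 samples per group was sequenced, 6 libraries in all, and all came from this single line. The study's methods name triplicates per group for cell experiments, without saying whether the RNA samples were wells of a single experiment. The p-values therefore reflect the scatter of these samples alone, and that scatter may be technical.

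Lysosomes are acidic organelles that break down what a cell takes up by phagocytosis or endocytosis and what it delivers by autophagy. Their soluble hydrolases digest proteins, glycosaminoglycans, sugar chains and lipids, heavily glycosylated membrane proteins line the organelle, and the V-ATPase pumps protons into it. TFEB and its relatives TFE3 and MITF, together the MiT factors, bind an E-box with the core CACGTG, which lies in the promoters of many lysosomal genes, and TFEB and TFE3 are known to move between the lysosome surface and the nucleus. In bone the osteoclast is best known for lysosomal enzymes, which it secretes onto the matrix.

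Of the 48 tested members, 11 were higher in PAKG cells at an adjusted p under 0.05 (22.9%, against 5.97% of all tested genes) and 0 were lower (8.73% of all tested genes were). The test was limma on log2(FPKM + 0.1) with Benjamini-Hochberg adjustment over all 12590 tested genes, and at an unadjusted p under 0.05 it gave 19 higher members and 1 lower, Lipa, where 12.0% of all tested genes were higher and 16.8% lower. No member also reached a fold change of 2, a size that 1.45% of all tested genes reached at that adjusted p. The median log2 fold change was 0.15 over the 48 members and -0.03 over all tested genes. A positive value was found for 39 members and a negative one for 9, where 44.5% of all tested genes were positive. Every PAKG library was above every OC library for 22 members, or 45.8% (13.7% of all tested genes), and below every OC library for 4, or 8.33% (19.6% of all tested genes). Samples with the same replicate number deviated together from their group means, but what the numbers mark is not stated. With the number as a block limma called 21 members higher and 2 lower, against 12.3% and 17.1% of all tested genes. Leaving out single libraries moved the count together with the share over all tested genes. Only Neu1 and Arsa were called without PAKG replicate 3 (2.63% of all tested genes were higher), 5 members without PAKG replicate 1 (3.42%) and without OC replicate 3 (2.82%), and 7 without OC replicate 1 (3.9%). There were 8 without OC replicate 2 (4.71%), and 14 higher and 1 lower without PAKG replicate 2 (7.84% higher and 9.85% lower).

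**Figure D1:**
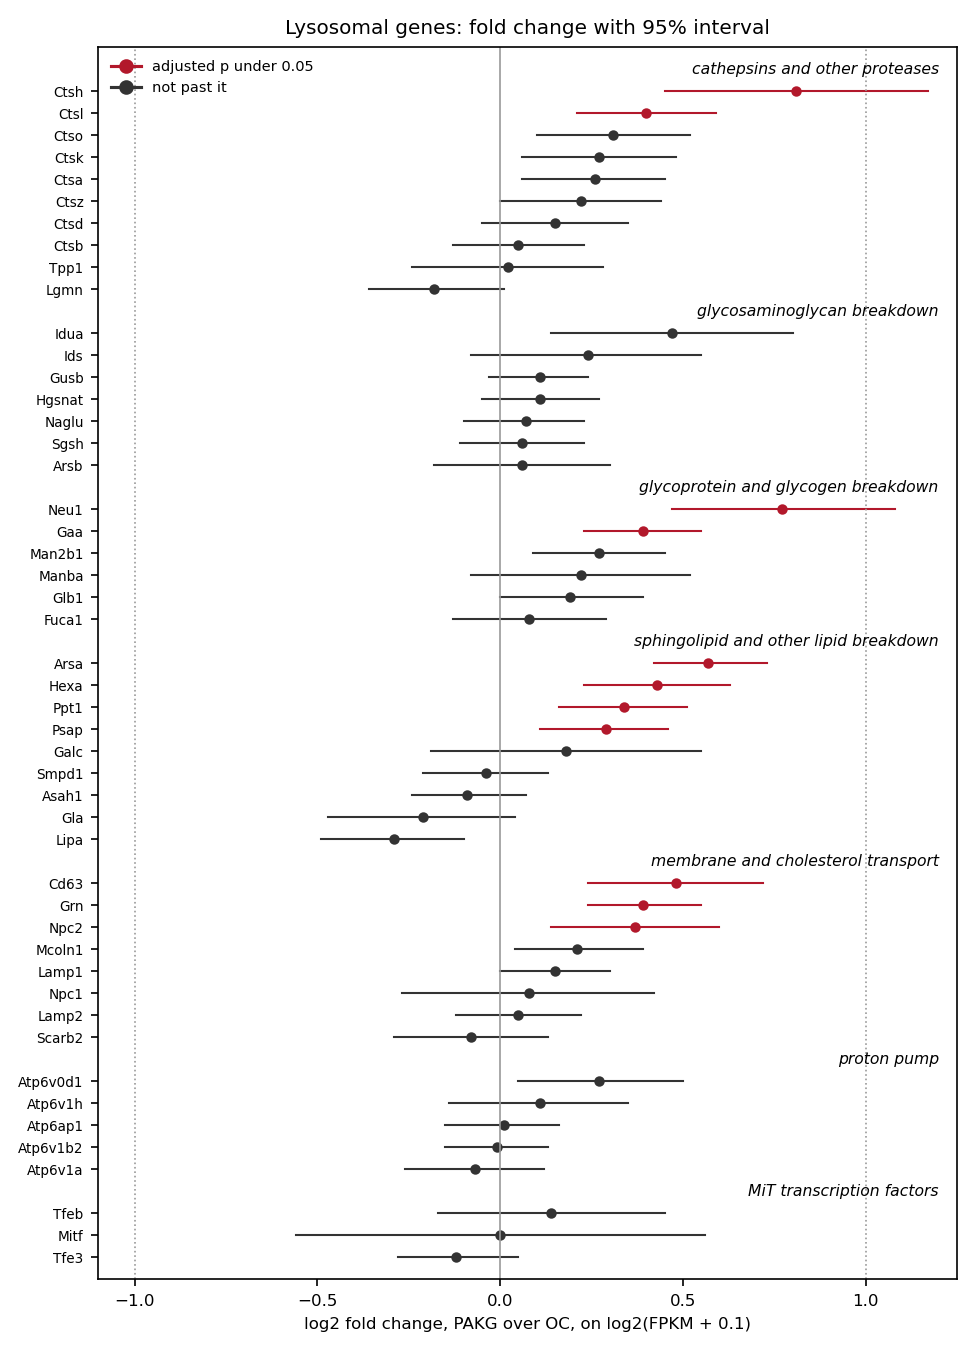
Log2 fold change of PAKG over OC on log2(FPKM + 0.1) for each of the 48 tested members, grouped by role, with its 95% interval from limma as a line and dotted lines at a fold change of 2. The 11 members in red passed the adjusted p, and they lie among the proteases, the sugar and lipid enzymes and the membrane and cholesterol transport genes, with none among glycosaminoglycan enzymes, proton pump subunits or MiT factors.

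The members were abundant. Psap ranked 100 among the 12590 tested genes by mean FPKM over the 6 libraries, Cd63 125, Ctsd 139 and Lamp1 187, and 66.7% of the tested members were at 10 FPKM or more, against 37% of all tested genes. Summed over the 52 members found, FPKM reached 2464, 2280 and 2437 in the PAKG libraries, or 0.793%, 0.787% and 0.792% of each library's total. In the OC libraries the sum was 2127, 1958 and 2036, or 0.673%, 0.662% and 0.625%. The lowest PAKG sum was thus above the highest OC sum, both in FPKM and as a share. The most abundant members weigh most in these sums, such as Psap (mean 385 FPKM in PAKG and 316 FPKM in OC cells) and Cd63 (347 and 248 FPKM). Of the 48 tested members, 9 had a negative log2 fold change. At the other end, Ctsc, Ctss, Gm2a and Cln3 stayed at 0.22 FPKM or less in every library and were not tested, and the expression of Ctsf was not analysed here.

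The proteases are cathepsins and related enzymes that cut proteins and peptides, and 2 of the 10 tested rose (20%, against 5.97% of all tested genes). Ctsh, a cysteine protease with aminopeptidase activity (chr9:90054152-90076089 on GRCm38), was at 5.93, 4.51 and 6.10 FPKM in PAKG cells, against 3.44, 2.56 and 3.29 FPKM in OC cells. The groups did not overlap, and with a log2 fold change of 0.81 (SE 0.15, adjusted p 0.0131, limma) Ctsh had the largest difference of all members. Ctsl, a cysteine endopeptidase (chr13:64359337-64370890), had 20.16, 17.67 and 19.30 FPKM in PAKG cells and 15.03, 13.37 and 14.73 FPKM in OC cells. Its log2 fold change was 0.40 (SE 0.08, adjusted p 0.0163). An exon of Ctsl overlaps that of a predicted gene on the same strand, Gm49230, so reads of that stretch cannot be assigned with certainty.

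The other 8 tested proteases did not pass. Ctsd, the main aspartic protease of lysosomes and the third most abundant member, had 290.14, 275.01 and 290.88 FPKM in PAKG cells and 279.73, 236.67 and 256.51 FPKM in OC cells, so the groups overlapped (log2 fold change 0.15, 95% interval -0.05 to 0.35, adjusted p 0.292). Ctsk, the collagen-degrading cathepsin known from osteoclasts, was at 119.03, 102.24 and 115.35 FPKM in PAKG cells, against 97.92, 85.15 and 95.71 FPKM in OC cells. Every PAKG value of Ctsk exceeded every OC value, while its adjusted p was 0.0871. Ctsa (0.26), Ctso (0.31) and Ctsz (0.22) had log2 fold changes of similar size with adjusted p of 0.0896, 0.0596 and 0.166, and with the replicate block Ctsk, Ctsa, Ctso and Ctsz all passed, at adjusted p of 0.00724, 0.0136, 0.0268 and 0.0168. Exons of Ctsa overlap those of Pltp on the opposite strand, and Pltp itself was at 116.62, 112.29 and 118.25 FPKM in PAKG cells, against 80.26, 73.09 and 76.87 FPKM in OC cells. Whether the counting used strand is not stated, so the part of Pltp reads in the Ctsa value was not tested. Ctsb (0.05) and Tpp1 (0.02), a tripeptidyl peptidase, were near 0. Lgmn, an endopeptidase that cuts after asparagine, was the only protease with a negative value, -0.18 (adjusted p 0.193, and 0.0416 with the block).

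**Figure D2:**
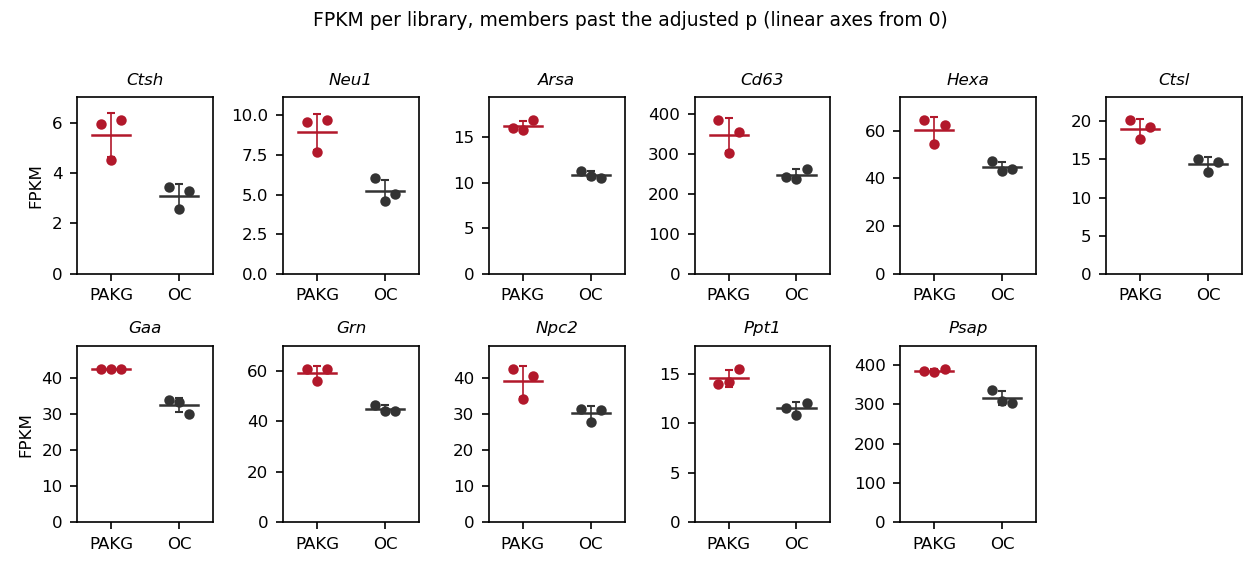
FPKM of the 11 members past the adjusted p in each of the 3 PAKG and 3 OC libraries, with the mean as a line and the SD as a bar, on linear axes from 0. In every panel the 3 PAKG points lie above the 3 OC points, with fold changes between 1.22 (Psap) and 1.75 (Ctsh).

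Among the enzymes that take apart glycoproteins and glycogen, 2 of 6 rose (33.3%, against 5.97% of all tested genes). Neu1, the sialidase that removes sialic acids from sugar chains (chr17:34931253-34935953), had 9.56, 7.67 and 9.70 FPKM in PAKG cells and 6.03, 4.61 and 5.01 FPKM in OC cells. The lowest PAKG library stood above the highest OC library, and the log2 fold change was 0.77 (SE 0.13, adjusted p 0.00839). Gaa, the acid α-glucosidase of glycogen (chr11:119267887-119285454), was nearly the same in the 3 PAKG libraries, 42.58, 42.58 and 42.45 FPKM, against 33.92, 33.48 and 30.19 FPKM in OC cells. Its log2 fold change was 0.39 (SE 0.07, adjusted p 0.0103). Neu1 works in a complex with the products of Ctsa and Glb1, a β-galactosidase, and for Glb1 the log2 fold change was 0.19 (adjusted p 0.181, and 0.0321 with the block). Man2b1 (0.27, adjusted p 0.0592), Manba (0.22) and Fuca1 (0.08), which remove mannose and fucose, did not pass, although Man2b1 did with the block (adjusted p 0.0201) and with median-ratio scaling (0.043).

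Lipid breakdown held the most called members, 4 of 9 (44.4%, against 5.97% of all tested genes). Arsa, the sulfatase of sulfatide (chr15:89472476-89477425), had 15.98, 15.75 and 16.86 FPKM in PAKG cells and 11.31, 10.73 and 10.49 FPKM in OC cells. With a log2 fold change of 0.57 (SE 0.07, adjusted p 0.00177) it had the smallest p of all members. Hexa, the α subunit of the hexosaminidase that cuts GM2 ganglioside (chr9:59539540-59565109), stood at 64.48, 54.31 and 62.34 FPKM in PAKG cells, against 47.37, 43.08 and 43.94 FPKM in OC cells. Its groups were also separate, with a log2 fold change of 0.43 (SE 0.09, adjusted p 0.016). Psap encodes prosaposin, which is cut into the saposins that present sphingolipids to their enzymes (chr10:60277627-60302597), and was the most abundant member. It had 384.29, 380.91 and 389.72 FPKM in PAKG cells and 335.92, 307.12 and 304.00 FPKM in OC cells, a log2 fold change of 0.29 (SE 0.07, adjusted p 0.0406). Ppt1, which takes palmitate off proteins (chr4:122836242-122859175), was at 13.97, 14.15 and 15.49 FPKM in PAKG cells, against 11.52, 10.86 and 12.09 FPKM in OC cells. That gave a log2 fold change of 0.34 (SE 0.08, adjusted p 0.0257). Exons of Ppt1 overlap those of Cap1 on the opposite strand, which had 120.57, 133.9 and 126.62 FPKM in PAKG cells and 113.4, 113.21 and 110.34 FPKM in OC cells, and the part of Cap1 reads in the Ppt1 value was not tested. Genes on the opposite strand that overlap exons of Hexa and Arsa were at 0.18 FPKM or less in every library.

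Lipid breakdown also held 4 of the 9 members with a negative value. Lipa, the acid lipase that frees cholesterol and fatty acids from lipoprotein lipids, was at 5.71, 6.66 and 6.33 FPKM in PAKG cells, against 7.58, 8.04 and 7.35 FPKM in OC cells. Every PAKG value of Lipa lay below every OC value, and its log2 fold change of -0.29 (95% interval -0.49 to -0.10) had an adjusted p of 0.0567, and of 0.0184 with the replicate block. The values of Gla (-0.21), the galactosidase of globotriaosylceramide, Asah1 (-0.09), the acid ceramidase, and Smpd1 (-0.04), the acid sphingomyelinase, did not pass with or without the block. Galc, the enzyme of galactosylceramide, had a log2 fold change of 0.18 at under 1 FPKM in every library.

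None of the 7 enzymes of glycosaminoglycan breakdown passed, although all 7 had positive log2 fold changes, between 0.06 (Arsb, Sgsh) and 0.47 (Idua). Over all tested genes 44.5% were positive. At an unadjusted p under 0.05, 12.0% of all tested genes were higher in limma. Of these 7 enzymes it gave 1, Idua, the iduronidase of heparan and dermatan sulfate. It had 1.75, 1.69 and 1.66 FPKM in PAKG cells and 1.07, 1.44 and 1.11 FPKM in OC cells (adjusted p 0.0661, and 0.0411 with the block). Ids, the iduronate sulfatase, had a log2 fold change of 0.24 and passed only with the block among the alternatives tried, at an adjusted p of 0.0316. Gusb, Naglu and Hgsnat lay between 0.07 and 0.11.

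In the membrane and cholesterol transport group, 3 of 8 tested members rose (37.5%, against 5.97% of all tested genes). Of the 3, only Cd63 encodes a membrane protein, while Grn and Npc2 encode soluble ones, so the share is not that of membrane proteins alone. Cd63, a tetraspanin of late endosomes, lysosomes and exosomes (chr10:128900989-128912822), had 383.69, 302.56 and 354.31 FPKM in PAKG cells and 242.23, 237.79 and 262.69 FPKM in OC cells. The log2 fold change was 0.48 (SE 0.10, adjusted p 0.021), and Cd63 lost its call in 6 of 16 alternatives. Grn, progranulin, a secreted protein that also enters lysosomes (chr11:102430315-102437048), was at 60.81, 55.83 and 60.60 FPKM in PAKG cells, against 46.54, 44.00 and 44.13 FPKM in OC cells, with a log2 fold change of 0.39 (SE 0.07, adjusted p 0.00868). Fam171a2, whose exons overlap those of Grn on the opposite strand, had 7.62, 6.56 and 7.66 FPKM in PAKG cells and 8.48, 8.56 and 8.13 FPKM in OC cells. Npc2, which hands cholesterol to Npc1 inside the lysosome (chr12:84754562-84773152), had 42.66, 34.33 and 40.58 FPKM in PAKG cells and 31.59, 27.95 and 31.36 FPKM in OC cells. It was the member nearest to the threshold, with a log2 fold change of 0.37 (SE 0.10) and an adjusted p of 0.0471. Npc1, the membrane protein that receives the cholesterol, had a log2 fold change of 0.08 (95% interval -0.27 to 0.42), and whether it differed from Npc2 was not tested.

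Lamp1, Lamp2, Mcoln1 and Scarb2, further membrane proteins of this group, did not pass the adjusted p in the unblocked fit. Lamp1 was at 237.73, 240.49 and 245.45 FPKM in PAKG cells, against 223.76, 211.77 and 216.93 FPKM in OC cells. These groups did not overlap, but the log2 fold change of 0.15 had an adjusted p of 0.185. Lamp2, its relative, had 29.72, 33.59 and 29.93 FPKM in PAKG cells and 29.06, 30.45 and 30.35 FPKM in OC cells, with a log2 fold change of 0.05 and a 95% interval of -0.12 to 0.22. Mcoln1, the cation channel TRPML1 of the lysosomal membrane, had 3.88, 3.99 and 3.92 FPKM in PAKG cells and 3.41, 3.40 and 3.32 FPKM in OC cells (log2 fold change 0.21, adjusted p 0.106, and 0.0487 with the block). Scarb2, the receptor that carries glucocerebrosidase to lysosomes, had -0.08.

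Of the 5 proton pump subunits none passed. At an unadjusted p under 0.05, where 12.0% of all tested genes were higher, limma gave 1, Atp6v0d1. This subunit of the membrane sector was at 74.27, 61.06 and 71.05 FPKM in PAKG cells, against 61.62, 53.05 and 55.59 FPKM in OC cells, so PAKG replicate 2 was below OC replicate 1. Its log2 fold change was 0.27 (adjusted p 0.106, and 0.0115 with the block). The cytosolic-sector subunits Atp6v1a (-0.07), Atp6v1b2 (-0.01) and Atp6v1h (0.11) and the accessory subunit Atp6ap1 (0.01) lay on both sides of 0.

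The mRNAs of the MiT factors did not pass in either direction. At an unadjusted p under 0.05 limma gave 0 of 3, where 12.0% of all tested genes were higher and 16.8% lower. Tfeb had 2.88, 2.18 and 2.82 FPKM in PAKG cells and 2.29, 2.22 and 2.59 FPKM in OC cells, with a log2 fold change of 0.14 and a 95% interval of -0.17 to 0.45. Tfe3 was at 5.02, 5.22 and 5.14 FPKM in PAKG cells, against 5.51, 5.51 and 5.67 FPKM in OC cells. All PAKG values of Tfe3 were below all OC values, by a log2 fold change of -0.12 with an interval of -0.28 to 0.05 (adjusted p 0.324). Mitf, near the filter on low values, had 0.49, 0.49 and 0.54 FPKM in PAKG cells and 0.38, 0.67 and 0.50 FPKM in OC cells. Its interval of -0.56 to 0.56 leaves changes of either sign possible. These are mRNA levels, and neither the amount nor the place of the proteins was measured here.

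**Figure D3:**
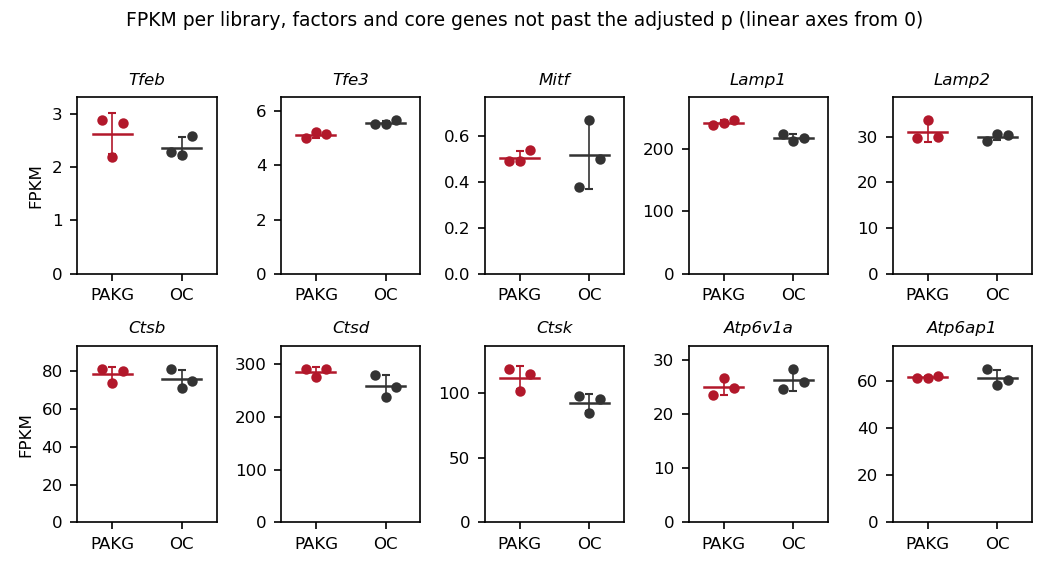
FPKM of the 3 MiT factors and of 7 abundant lysosomal genes that did not pass the adjusted p, in each of the 3 PAKG and 3 OC libraries, with the mean as a line and the SD as a bar, on linear axes from 0. The groups overlap for Tfeb, Mitf, Lamp2, Ctsb, Ctsd, Atp6v1a and Atp6ap1, whereas for Lamp1 and Ctsk the PAKG points lie above the OC points and for Tfe3 below them.

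Since the MiT factors bind the E-box, the RefSeq promoter windows of the members (GRCm38.p6, 250 bases before the start site and 50 from it on) were searched for CACGTG and for the longer TCACGTGA, which contains it. Both read the same on either strand. Windows were given for 46 of the 53 members and none for Asah1, Hgsnat, Npc1, Ctsh, Ctsb, Atp6v1h and Atp6v1b2. CACGTG was found in 16 of the 46 members (34.8%), against 12.0% of 8840 tested genes and 8.09% of 27025 genes with a window. TCACGTGA was found in 7 (15.2%), against 2.4% of the tested genes and 1.12% of all. The stretches around the matches are shown for the called members that have one and for Ctsa, Mcoln1 and Lamp1, which hold several. Ctsd and Gla, with log2 fold changes of 0.15 and -0.21, and the untested Cln3 hold 2 matches each and are not shown. Each stretch is read 5′ to 3′ on the gene's strand, with the E-box in capitals (8 capitals where the longer form matched).
Arsa, chr15:89477408-89477467, minus strand: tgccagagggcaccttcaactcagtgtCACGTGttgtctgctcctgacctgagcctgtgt
Gaa, chr11:119267796-119267855, plus strand: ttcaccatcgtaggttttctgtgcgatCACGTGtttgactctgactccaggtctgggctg
Ctsl, chr13:64370724-64370770, minus strand: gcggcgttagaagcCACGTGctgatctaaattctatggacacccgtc
Ctsa, chr2:164833734-164833810, plus strand: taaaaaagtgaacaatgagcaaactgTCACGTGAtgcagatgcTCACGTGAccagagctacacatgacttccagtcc
Mcoln1, chr8:3500421-3500506, plus strand: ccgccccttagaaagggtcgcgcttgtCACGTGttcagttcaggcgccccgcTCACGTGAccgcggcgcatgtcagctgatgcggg
Lamp1, chr8:13159073-13159178, plus strand: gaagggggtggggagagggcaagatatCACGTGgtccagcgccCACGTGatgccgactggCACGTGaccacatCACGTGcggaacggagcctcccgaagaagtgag

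Among the 10 called members with a window, 3 held CACGTG (30.0%; Arsa, Gaa and Ctsl) and 0 held TCACGTGA. Among the 31 tested members with a window that were not called, 11 held CACGTG (35.5%) and 6 held TCACGTGA (19.4%), namely Atp6v0d1, Atp6v1a, Ctsa, Ctsd, Gla and Mcoln1. Cln3 and Ctsf, which were not tested, held CACGTG too, and in Cln3 it also took the longer form. Lamp1 had 4 matches in its window, at positions -61, -45, -28 and -15 from the RefSeq start site, and its log2 fold change was 0.15. In Arsa the match began at position -16 and in Gaa at -140. A match is a run of letters and not a measured binding site, of an MiT factor or of any other protein. The lack of a match says only that these letters are not in that window.

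**Figure D4:**
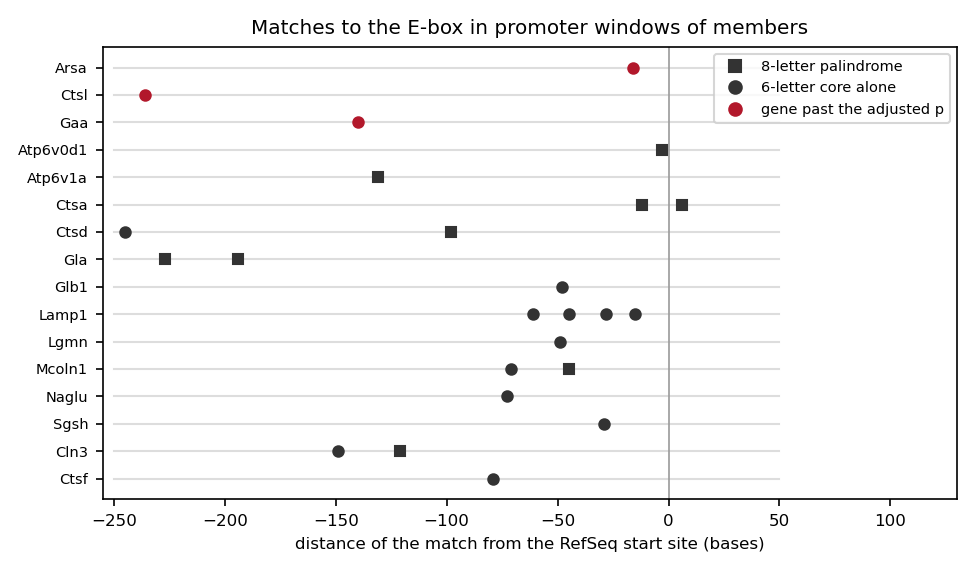
Position of each match to the E-box relative to the RefSeq start site, in bases, for the 16 members with at least 1 match, with squares for the 8-letter form, circles for the 6-letter core alone and red for members past the adjusted p. The 3 called members hold 1 circle each, Lamp1 holds 4 circles, and both matches of Ctsa lie next to the start site.

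Other genes of the same system were taken in 7 lists, 208 genes of which 198 were found and 175 tested. Of these, 18 were higher (10.3%, against the 5.97% of all tested genes) and 1 was lower at the adjusted p, and the median log2 fold change was 0.09. With the replicate block the counts were 45 and 9, and the shares over all tested genes 12.3% and 17.1%. The higher genes were mostly further lysosomal enzymes, 11 of 31 tested (35.5%, median 0.27), beside the 8 of 32 tested enzymes and activators among the members (25%, median 0.21). Smpdl3a, related to acid sphingomyelinase, was the only gene of the 7 lists to reach a fold change of 2 as well. It had 1.31, 1.54 and 1.63 FPKM in PAKG cells and 0.73, 0.52 and 0.63 FPKM in OC cells, a log2 fold change of 1.14 (SE 0.17, adjusted p 0.00513).

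In 4 of the other 6 lists the share called higher was 7.14% to 7.89%, near the 5.97% of all tested genes, and in the other 2 it was 0. Of the lysosomal membrane, 2 of 28 were higher, Tpcn1 (0.51, adjusted p 0.0173), a cation channel, and Slc36a1 (0.46, adjusted p 0.0276), an amino acid exporter. Among 13 further proton pump genes Atp6v0a2 was higher (0.29, adjusted p 0.0361) and Tcirg1 lower. Tcirg1, the membrane-sector subunit known from osteoclasts, had 14.02, 13.62 and 13.30 FPKM in PAKG cells and 18.87, 17.52 and 17.46 FPKM in OC cells (log2 fold change -0.39, adjusted p 0.00857). Of enzyme sorting genes 1 of 14 was higher, Sumf1, which activates the sulfatases (0.25, adjusted p 0.0385), and Gga2 came next (0.30, adjusted p 0.0557). Autophagy genes had 3 of 38 higher, led by the receptor genes Optn (0.74, adjusted p 0.00109) and Calcoco1 (0.54, adjusted p 0.00309), and Map1lc3b, which encodes an LC3 protein, was the other. Among 25 genes that control the MiT factors limma called 0. At an unadjusted p under 0.05 there were 3, all higher, near the share over all tested genes (12.0%). The smallest adjusted p were those of Lamtor4 (0.31, 0.103) and Flcn (0.21, 0.109). Among 26 genes of phagosome and endosome maturation limma also called 0. At an unadjusted p under 0.05, where 16.8% of all tested genes were lower, there was 1 lower, Rab14 (-0.19, adjusted p 0.0953), followed by Eea1 (-0.31, adjusted p 0.18).

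**Figure D5:**
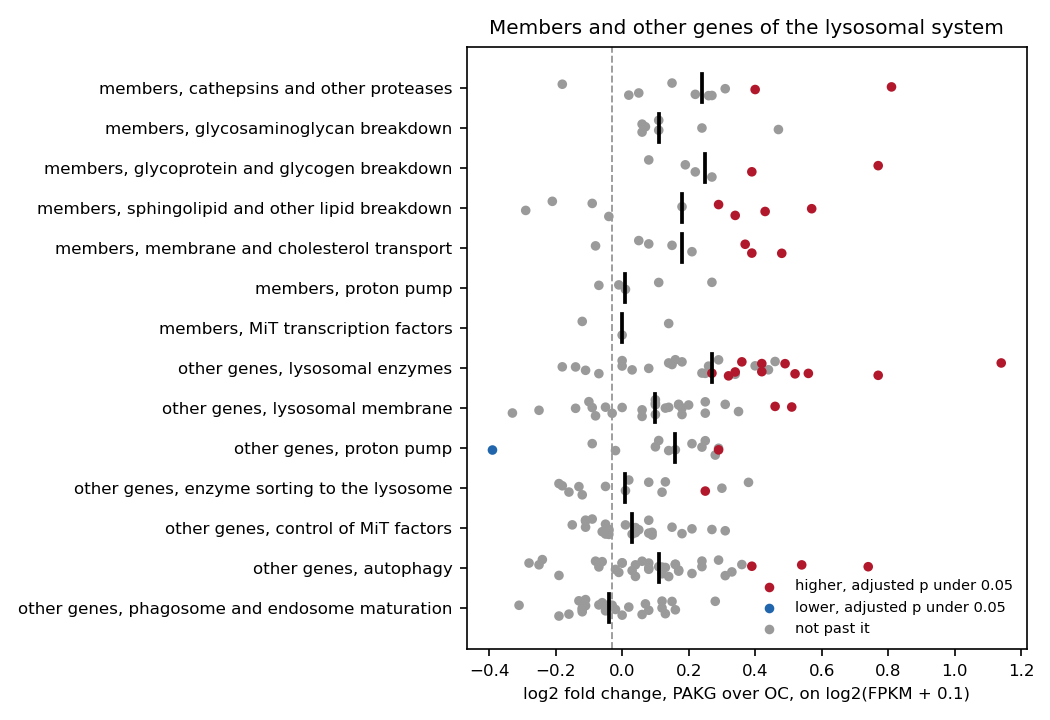
Log2 fold change of PAKG over OC for each tested gene, on log2(FPKM + 0.1), by role for the members and by list for the other genes, with the list median as a black bar and the median of all tested genes (-0.03) as a dashed line. The other lysosomal enzymes have the highest median, 0.27, and the most red points of any list. Medians between -0.04 and 0.03 belong to the members' proton pump, the enzyme sorting list, the MiT factors, their control genes and the phagosome and endosome list.

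Markers of cell types and library totals were read beside these results. All 9 osteoblast markers were found, and their FPKM, most of it that of Col1a1, Col1a2 and Sparc, summed to 8600 to 9230 in PAKG libraries and 5910 to 6940 in OC libraries. Of the 9, 7 were called higher and 1, Spp1, lower, where 5.97% of all tested genes were higher and 8.73% lower. Spp1 was at 208.43, 173.22 and 194.85 FPKM in PAKG cells and 285.27, 241.94 and 287.68 FPKM in OC cells (log2 fold change -0.50, adjusted p 0.0186). Of 14 macrophage markers 7 were found, 5 of them with a mean over the 6 libraries under 0.5 FPKM (0.495 for Fcer1g). The list summed to 20.2 to 22.4 FPKM in PAKG libraries and 12.6 to 16.8 FPKM in OC libraries. Most of that was Lyz2, at 16.02, 15.22 and 16.95 FPKM in PAKG cells and 11.46, 8.51 and 11.05 FPKM in OC cells. Cd14 overlapped between groups, at 4.69, 3.91 and 4.52 FPKM in PAKG cells and 5.28, 3.86 and 3.58 FPKM in OC cells, and Fcer1g did not, at 1.35, 0.80 and 0.55 FPKM in PAKG cells and 0, 0.16 and 0.11 FPKM in OC cells. The defining marker Ptprc was at 0 in all PAKG libraries and at most 0.01 in OC libraries, and Csf1r was at 0.29, 0.22 and 0.28 FPKM in PAKG cells and 0.09, 0.06 and 0.12 FPKM in OC cells. Mrc1 and Cx3cr1 were at 0.03 FPKM or less in every library. Of 10 osteoclast markers 7 were found, 5 of them with a mean over the 6 libraries under 0.5 FPKM. The list summed to 9.82 to 11.9 FPKM in PAKG libraries and 9.42 to 11.7 FPKM in OC libraries. Most of that was Nfatc1, at 5.29, 5.94 and 5.29 FPKM in PAKG cells and 5.52, 6.34 and 4.85 FPKM in OC cells, and Itgb3. Itgb3 had 4.18, 5.53 and 4.54 FPKM in PAKG cells and 4.07, 5 and 4.2 FPKM in OC cells, so both overlapped between groups. Calcr was at 0 throughout, and Acp5 at 0 in all PAKG libraries and at most 0.04 in OC libraries. Total FPKM ran over overlapping ranges, 289675.9 to 310581.7 in PAKG libraries and 295863.6 to 325818.2 in OC libraries, and mitochondrial genes took 9.53% to 10.71% of it in PAKG libraries and 10.84% to 11.88% in OC libraries. The osteoblast and macrophage sums were thus higher in every PAKG library, as was the members' sum, and their part in the members' values was not tested. In bulk RNA, a change in the number of cells of a type and a change in RNA per cell cannot be told apart.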

How the data were processed

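RNA-Seq tables of 6 libraries of MC3T3-E1 cells, 3 PAKG and 3 OC, were analysed, with groups and replicate numbers taken from the sample labels. The authors deposited FPKM per gene, rounded to 2 decimals. Tools credited in the submitters' processing notes are HISAT2, StringTie, cutadapt, FastQC and DESeq2, with GRCm38 as the build. Not given in the sources used here were tool versions, the annotation release and the strand setting. Per the labels, a stranded mRNA kit was used, and poly(A) RNA was sequenced. Since these values are length- and depth-scaled, count models were not applied, and the depth behind a value is unknown here.

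Values were transformed to log2(FPKM + 0.1), so fold changes of low genes are understated. Genes were kept at a mean of 0.5 FPKM or more, 12590 in all, and fitted by limma 3.58.1 under R 4.3.3 (lmFit, then eBayes with trend; 3.54 prior and 4 residual degrees of freedom), 2-sided, with Benjamini-Hochberg adjustment over all of them. A call is an adjusted p under 0.05, and the study's fold threshold of 2 was read beside it. Per-library values are given for called members, Tfeb, Tfe3, Mitf, Lamp1, Lamp2, Cd63 and the 3 most abundant members. In each further list the genes past both thresholds are named, or else the 2 with the smallest adjusted p. Per-library values of Ctsk, Lipa, Idua, Mcoln1, Atp6v0d1, Tcirg1, markers and overlapping genes, and the name Map1lc3b, were added after their values were seen. Members and lists were chosen with earlier results of these data known. Coordinates are those of GENCODE M21 on GRCm38, and promoter sequences are RefSeq's on GRCm38.p6. Python 3.11.15 (pandas 2.3.3, numpy 2.4.6, matplotlib 3.10.9) served for tables and plots.

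The samples with the same replicate number deviated together from their group means (r over the tested genes 0.240, 0.430 and 0.192 for numbers 1, 2 and 3, all above the minimum of 0.1, against -0.312 to 0.138 for other numbers). PAKG replicate 3 and OC replicate 1, at 0.138, were also above that minimum. Deviations from a mean of 3 libraries cancel within the group. Negative values for other numbers therefore follow in part from positive ones for the same number and are not separate evidence of pairing. The pairing comes from the labels' numbers, whose meaning is not stated, so it is not a known part of the design. A fit with the number as a block was run beside the unblocked one. There were 16 alternatives: pseudocounts of 1 and 0.01, a filter at a mean of 1 FPKM or none, libraries rescaled to a common total or by median ratios, no mean-variance trend, the block, each library left out, replicate 2 of both groups left out and, chosen after the data were seen, a common total without mitochondrial genes.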

Additional observations from a re-analysis of the deposited data

How the results depend on the processing

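Of the 11 called members, Neu1 and Arsa were called in all 16 alternatives, with adjusted p of at most 0.0437 and 0.016, and Ctsh, Gaa and Grn in 15. Ctsl and Hexa were called in 13, Ppt1 in 11, Cd63 in 10, and Psap and Npc2 in 9, where the adjusted p reached 0.178 and 0.168. The direction of all 11 held in all 16, the scalings included, and no member passed both thresholds in any of them. Leaving out single libraries gave 2 to 14 higher and 0 to 1 lower members, and 6 to 29 higher and 0 to 3 lower genes of the other lists. The shares over all tested genes moved as well, from 2.63% to 7.84% higher and from 3.97% to 9.85% lower. The replicate block gave 21 and 2 members and 45 and 9 other genes, with 12.3% and 17.1% of all tested genes called. It called no member of the 11 differently. Without replicate 2 of both groups 1 member (Lipa) and 5 other genes were lower and 31 other genes higher. Over all tested genes 12.3% were then lower and 9.56% higher. Without mitochondrial genes in the total 2 other genes were lower, against 6.75% of all tested genes. With no filter on low values 8 members were called, without Cd63, Npc2 and Psap, over 25742 genes tested, of which 2.11% were higher. The median over members minus that over all genes stayed between 0.15 and 0.21. Of 764 values of single genes, 680 kept direction and call, 32 gained a call, 34 lost it and 18 turned sign, none of these called. With single libraries left out, the log2 fold change ran from -0.17 to 0.02 for Mitf (turned without PAKG replicate 3, -0.04, OC replicate 1, or OC replicate 3, 0.00), -0.09 to 0.00 for Smpd1 (without OC replicate 1), -0.03 to 0.05 for Atp6ap1 (without OC replicate 2, and 0.00 without PAKG replicate 3 or OC replicate 3), and, turned without PAKG replicate 2, from -0.09 to 0.14 for Tpp1, -0.03 to 0.14 for Arsb, -0.01 to 0.08 for Lamp2 and -0.05 to 0.18 for Npc1. The sign also turned for Mitf with a pseudocount of 1 (-0.01), Smpd1 at a common total (0.01), Atp6v1b2 at a common total (0.03, and 0.01 without mitochondrial genes) and with median-ratio scaling (0.01), and without replicate 2 of both groups for Tpp1 (-0.09) and Atp6ap1 (-0.02). With too low a mean, Mitf could not be tested at a filter of 1 FPKM or without replicate 2 of OC or of both groups, nor Galc at that filter. The cause of these changes was not tested.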
